A study of Mus musculus with 8 samples.

Results

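The Wnt ligands are secreted, lipid-modified glycoproteins by which neighbouring cells instruct each other, and 10 of their genes were followed in mouse embryonic stem cells (mESCs) and in the embryoid bodies (EBs) made from them. The genes were Wnt3, Wnt3a, Wnt4, Wnt5a, Wnt5b, Wnt6, Wnt7b, Wnt8a, Wnt9a and Wnt11. They were taken by symbol from the 18094 genes of the expression table and chosen with earlier results of these data known. All 10 were listed, and 9 of them, all but Wnt7b, reached a mean of 10 normalized counts over all libraries and were tested, within 15767 genes in all.

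Wnt proteins are acylated by Porcn and carried to the cell surface by Wls, and they bind Frizzled receptors. With Lrp5 or Lrp6 as co-receptor this stabilizes β-catenin, which activates target genes together with TCF and LEF factors. Wnt3, Wnt3a and Wnt8a are known for this β-catenin branch, in which Wnt3 is needed to form the primitive streak, the place where mesoderm arises in the embryo. Wnt5a, Wnt5b and Wnt11 are known mainly for a branch that acts on cell movement and polarity through receptors such as Ror2.

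RNA was sequenced from mESCs (day 0) and from EBs after 4 days of differentiation, each of the WT and the CTCF-K20R genotype, in 2 replicate libraries per group and 8 in all. The cells were of the E14Tg2A line, and in CTCF-K20R cells CRISPR/Cas9 had replaced lysine 20 of the chromatin protein CTCF by arginine. The mESCs of both genotypes grew on inactivated mouse embryo fibroblasts with serum, LIF and 2i, which includes CHIR99021, an inhibitor of the kinase Gsk3 that acts in the β-catenin branch of the pathway. EBs formed in hanging drops in serum medium without LIF. The mutant cells came from drug-selected, correctly targeted colonies, and the labels do not say how many colonies or cultures the libraries stand for, so the genotype cannot be told apart from differences between colonies or cultures. The paper describes the RNA libraries as 2 biological replicates from independent experiments, and does not say how many colonies they came from. The samples are bulk RNA, in which fewer cells of a type and less RNA per cell cannot be told apart.

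The values are the authors' normalized counts, and they summed to between 19412659 and 21311513 per library. The 2 WT libraries of each day were closer to each other than sampling noise allows for independent reads (0.313 and 0.278 of the squared difference expected by sampling, against 4.00 and 4.36 for the CTCF-K20R pairs) and therefore counted as 1 sample. This departs from the paper, which states 2 independent experiments for each sample. Each test of the genotypes on 1 day thus set 1 WT sample against 2 CTCF-K20R samples. The error of every test came from the CTCF-K20R pairs, and p-values measure only the spread between those samples, which may be technical. A gene was called higher or lower where its log2 fold change on the log2(value + 1) scale was above 1 or below -1 and its adjusted p (limma, Benjamini-Hochberg over all genes tested) was under 0.05. A level of 3 reads, taken as the limit of detection, stood at 2.43 to 3.44 normalized counts, which covers counting error only. Ctcf had 3938 to 4926 normalized counts in the 8 libraries, and a point mutation cannot be read from such values, so the expression of Ctcf does not check the genotype labels. Summed pluripotency markers (7 genes) were at 104200 to 105400 normalized counts in the mESC libraries and at 15540 to 32130 in the EB libraries, and the 9 fibroblast markers summed to 152.6 to 515.4 in the mESC libraries. Of these, Thy1 had 103.3 to 465.4, Col1a1, Col1a2 and Acta2 had 2.20 to 34.3, and Col3a1, Postn, Dcn, Lum and Twist2 had 0 to 1.51 normalized counts, under the limit of detection.

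The genes lie apart on the genome with 1 exception among the 10. Wnt3a (chromosome 11 of GRCm38, 59248033 to 59290752) and Wnt9a (59306928 to 59333552) are transcribed away from each other, with start sites 16.2 kb apart and no annotated gene between them. The other ligands followed most closely were Wnt3 (chromosome 11, 103774150 to 103817957), Wnt5a (chromosome 14, 28504750 to 28527448), Wnt5b (chromosome 6, 119432531 to 119544347) and Wnt11 (chromosome 7, 98835112 to 98855195). RefSeq promoter windows (GRCm38.p6, 300 bases) were found for 7 of the 10 ligands, in 10 windows, and Wnt5a, Wnt7b and Wnt8a had none in the table. The letters CTTTGAT, which TCF and LEF factors bind, stood on either strand in 2 of these 10 windows (1 of Wnt11 and 1 of Wnt5b) and in 3.73% of all 32851 windows. The core letters of the CTCF motif, searched on both strands, stood in 0 of the 10 and in 2.44% of all windows. The 250 bases before the start follow, 5′ to 3′ on the strand of the gene, for Wnt3a and Wnt9a, because these neighbours went opposite ways in CTCF-K20R EBs, and for Wnt11, because its window holds the TCF/LEF letters, here in capitals on the reverse strand.
Wnt3a, chr11:59290752-59291001, minus strand: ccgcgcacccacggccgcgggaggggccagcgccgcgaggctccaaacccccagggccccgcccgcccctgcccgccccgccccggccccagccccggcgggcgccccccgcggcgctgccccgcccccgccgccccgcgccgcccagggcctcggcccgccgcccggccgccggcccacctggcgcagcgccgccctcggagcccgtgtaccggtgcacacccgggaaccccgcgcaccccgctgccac
Wnt9a, chr11:59306680-59306929, plus strand: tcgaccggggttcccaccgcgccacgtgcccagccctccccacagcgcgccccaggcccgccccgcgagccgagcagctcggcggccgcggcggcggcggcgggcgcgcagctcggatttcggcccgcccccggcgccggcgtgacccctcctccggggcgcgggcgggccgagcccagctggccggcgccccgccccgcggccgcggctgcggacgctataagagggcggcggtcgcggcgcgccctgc
Wnt11, chr7:98834862-98835111, plus strand: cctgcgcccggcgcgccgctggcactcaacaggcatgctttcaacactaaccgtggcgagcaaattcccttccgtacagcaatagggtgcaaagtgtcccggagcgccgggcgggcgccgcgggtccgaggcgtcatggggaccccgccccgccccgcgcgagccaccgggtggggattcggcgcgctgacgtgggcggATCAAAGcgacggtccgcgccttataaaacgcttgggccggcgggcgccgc
In the whole 300-base windows the share of G and C was 86.3% for Wnt3a, 83.3% for Wnt9a and 71.3% for Wnt11, with 45, 58 and 45 CpG dinucleotides. A match of letters is a description of the window and not a binding site, and 0 matches say only that the letters are not there.

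The study also designed RT-qPCR primers for 3 of these ligands, and they are shown because they fix which transcripts such an assay reads next to the whole-gene values used here. The Wnt3 pair lies in exon 2 of the only annotated transcript, with 122 bases from end to end. The Wnt5a pair lies in exons 4 and 5 and gives 157 bases, and the Wnt11 pair lies in exon 4 and across exons 4 and 5 and gives 193 bases. The Wnt5a and Wnt11 pairs each match 3 of the 6 annotated transcripts of their gene.
Wnt3 forward: cagtacacatctctggcctcc
Wnt3 reverse: ttcacaccttctgctacgct
Wnt5a forward: aaagggaacgaatccacgct
Wnt5a reverse: cagcacgtcttgaggctaca
Wnt11 forward: acactgtaaacagctggaggg
Wnt11 reverse: acctctctccaggtcaagca

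In EBs on day 4, 6 of the 9 ligands tested were lower in CTCF-K20R than in WT EBs and 1, Wnt9a, was higher. The lower ones were Wnt3, Wnt3a, Wnt5a, Wnt5b, Wnt6 and Wnt11, so Wnt3 and Wnt3a of the β-catenin ligands and all 3 ligands of the movement branch were among them, and Wnt8a was not. Of all 15767 genes, 8.65% were called lower and 6.89% higher in the same comparison. The median log2 fold change was -2.16 over the 9 ligands and 0.01 over all genes. Wnt3a reached the filter only through the WT EBs, in which it was high, and without it 5 of 8 ligands were lower and 1 higher, with a median of -2.12. Wnt8a and Wnt4 were not called. In 7 ligands the CTCF-K20R libraries did not overlap with the WT ones and were lower, in 2 they were higher, and 41.7% and 43.3% of all genes did the same.

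**Figure D1:**
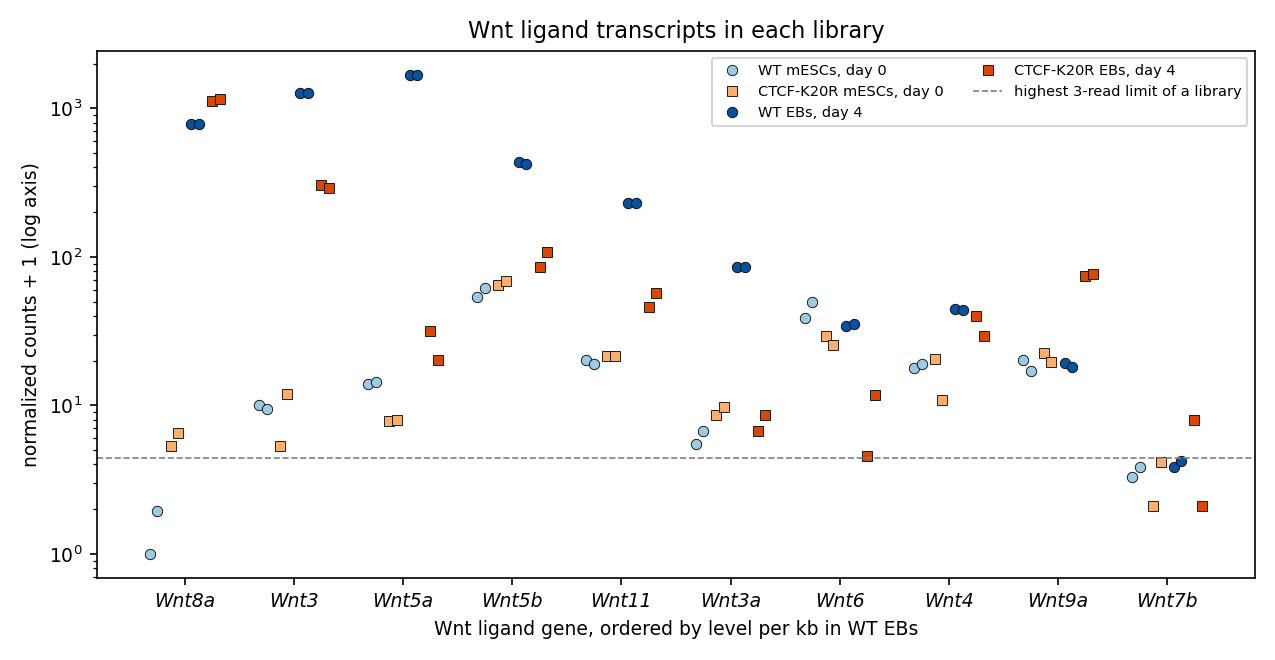
Normalized counts plus 1 (log axis) of the 10 Wnt ligand genes in each of the 8 libraries, with WT as circles, CTCF-K20R as squares, day 0 in light and day 4 in dark colours, and a dashed line at the highest 3-read limit. WT EBs (dark circles) stand highest for Wnt3, Wnt5a, Wnt5b, Wnt11 and Wnt3a, CTCF-K20R EBs for Wnt8a and Wnt9a, and Wnt7b stays near the limit.

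Wnt3, the ligand needed for the primitive streak, was low in mESCs and abundant in WT EBs. In mESCs the normalized counts were 9.03 and 8.48 (WT) and 4.31 and 10.98 (CTCF-K20R), and in EBs they were 1261 and 1259 (WT) and 305.0 and 290.8 (CTCF-K20R). The mESC libraries of the genotypes overlapped, while both CTCF-K20R EB libraries lay far below the WT ones and far above all mESC libraries. Wnt3 was thus 4.23-fold lower in CTCF-K20R EBs, at 297.9 ± 9.99 normalized counts (SD, n = 2), with a log2 fold change of -2.08 (standard error 0.505, limma adjusted p = 0.0236). The standard error is shared with the mESC libraries, which had few reads, and with the day 4 libraries fitted alone the limma adjusted p was 0.0012. The call was lost without replicate 1 (limma adjusted p = 0.156) or replicate 2 (0.165) of the CTCF-K20R EBs, where 1 EB library was left.

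Wnt3a, which maintains the mesoderm progenitors of the streak and tail bud, was detected well above the limit in WT EBs alone. The libraries had 4.53 and 5.67 normalized counts in WT mESCs, 7.58 and 8.83 in CTCF-K20R mESCs, 84.8 and 83.9 in WT EBs and 5.75 and 7.60 in CTCF-K20R EBs. The CTCF-K20R EB libraries lay within the range of the mESC libraries. The difference on day 4 was 12.6-fold, with a log2 fold change of -3.49 (standard error 0.475, limma adjusted p = 0.00336). Wnt3a passed the filter on low values through the WT EBs, the group in which it was high, so it had to differ there if it was tested at all.

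Wnt8a, a ligand of the posterior epiblast and streak in the embryo, was the exception among the β-catenin ligands. In mESCs the normalized counts were 0 and 0.943 (WT) and 4.31 and 5.50 (CTCF-K20R), and in EBs they were 782.1 and 782.2 (WT) and 1127 and 1156 (CTCF-K20R). Both CTCF-K20R EB libraries were above both WT libraries, by a ratio of 1.46 and a log2 fold change of 0.54 (standard error 0.286), which did not pass the test (limma adjusted p = 0.185). Wnt8a thus differed from Wnt3 and Wnt3a in that it was not lower in CTCF-K20R EBs, although its day 4 libraries alone gave a limma adjusted p of 0.00885 for a higher level, still short of the minimum fold change.

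Wnt5a, the best known ligand of the movement branch, had the largest log2 fold change of the 9 ligands. It had 13.0 and 13.3 normalized counts in WT mESCs, 6.84 and 6.96 in CTCF-K20R mESCs, 1671 and 1685 in WT EBs and 30.5 and 19.2 in CTCF-K20R EBs. The CTCF-K20R EB libraries were above all mESC libraries and far below the WT EB libraries. Wnt5a was 67.6-fold lower in CTCF-K20R EBs, with a log2 fold change of -6.06 (standard error 0.412, limma adjusted p = 0.000322). Wnt5a overlaps Gm2670 on the opposite strand, and the use of strand in the counting is not given in the sources used here. In the same way Wnt5b overlaps Fbxl14, Wnt6 overlaps Gm29539 and Wnt11 overlaps Gm8398. These overlaps are of whole gene bounds, introns included, and whether exons are shared was not tested. Where they are, part of the reads may be assigned to the wrong partner.

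Wnt5b, its close relative, was already present in mESCs. It had 52.4 and 60.9 normalized counts in WT mESCs, 63.3 and 67.9 in CTCF-K20R mESCs, 433.6 and 423.4 in WT EBs and 84.9 and 106.9 in CTCF-K20R EBs. The WT EB libraries stood apart, and the CTCF-K20R EB libraries lay just above the mESC range. The difference was 4.47-fold, with a log2 fold change of -2.16 (standard error 0.248, limma adjusted p = 0.00188).

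Wnt11, which acts in cell movements of gastrulation and in heart formation, followed a like pattern. The libraries had 19.3 and 17.9 normalized counts in WT mESCs, 20.67 and 20.66 in CTCF-K20R mESCs, 231.2 and 228.5 in WT EBs and 44.95 and 56.03 in CTCF-K20R EBs. The EB libraries of both genotypes were above all mESC libraries, and the WT ones by more. Wnt11 was 4.55-fold lower in CTCF-K20R EBs, with a log2 fold change of -2.17 (standard error 0.325, limma adjusted p = 0.00455).

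Wnt6, a ligand of epithelia, had its highest levels in WT mESCs. It had 37.7 and 48.9 normalized counts in WT mESCs, 28.3 and 24.6 in CTCF-K20R mESCs, 33.3 and 34.6 in WT EBs and 3.53 and 10.7 in CTCF-K20R EBs. The CTCF-K20R EB libraries were the lowest of all, and 1 of them lay just above the limit of detection. The 4.75-fold difference on day 4 was called (log2 fold change -2.26, standard error 0.642, limma adjusted p = 0.0386), and the call was lost in 7 of 17 alternative fits. Without replicate 1 of the CTCF-K20R EBs the difference was 3.16-fold and not called (limma adjusted p = 0.0687), and without replicate 2 it was 9.59-fold.

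Wnt9a, known for its role in joint formation, was the only ligand called higher in CTCF-K20R EBs. It had 19.2 and 16.0 normalized counts in WT mESCs, 21.6 and 18.7 in CTCF-K20R mESCs, 18.2 and 17.0 in WT EBs and 73.5 and 75.9 in CTCF-K20R EBs. The mESC libraries and the WT EB libraries shared 1 range, and the CTCF-K20R EB libraries stood above it. The difference was 4.24-fold, with a log2 fold change of 2.02 (standard error 0.346, limma adjusted p = 0.00729). Its neighbour Wnt3a, whose start site is 16.2 kb away, was lower in the same EBs, as given above. Over the 73 other genes tested within 2 Mb of Wnt9a the median log2 fold change was 0.05, with 4 genes called lower and 3 higher. Of all genes tested, 8.65% were called lower and 6.89% higher.

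Wnt4 and Wnt7b gave no call. Wnt4, which acts in the kidney and the reproductive tract, had 17.0 and 17.9 normalized counts in WT mESCs, 19.5 and 9.90 in CTCF-K20R mESCs, 43.9 and 42.7 in WT EBs and 39.0 and 28.3 in CTCF-K20R EBs. Its log2 fold change on day 4 was -0.37 (standard error 0.523, limma adjusted p = 0.608), smaller than its standard error. Wnt7b had 1.09 to 6.98 normalized counts over the 8 libraries, was under the filter and was not tested, and at this depth no difference was detectable.

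**Figure D2:**
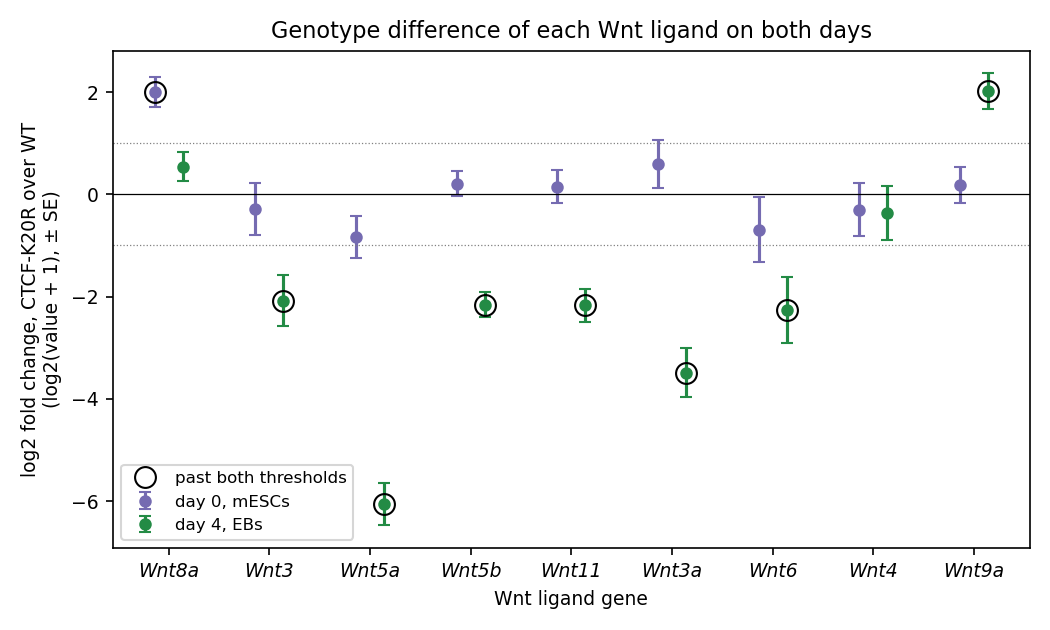
Log2 fold change of CTCF-K20R over WT on the log2(value + 1) scale for the 9 ligands tested, with standard errors, on day 0 (purple) and day 4 (green), circled where the call was made and with dotted lines at the minimum fold change. On day 4, 6 ligands lie below the lower line and Wnt9a above the upper one, while on day 0 Wnt8a is the only ligand called.

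Between the mESCs on day 0 the ligands differed little. Of the 9 ligands, 0 were called lower and 1, Wnt8a, higher, and 1 ligand had an unadjusted p under 0.05. Over all genes 2.6% were called lower and 1.19% higher on day 0. Both WT mESC libraries of Wnt8a were under the limit of detection, so Wnt8a was at least 1.44-fold higher in CTCF-K20R mESCs, and its fitted log2 fold change of 2.00 (limma adjusted p = 0.012) depends on the pseudocount: it was 0.51 with a pseudocount of 10. The log2 fold changes of the other 8 ligands lay between -0.84 (Wnt5a, limma adjusted p = 0.233) and 0.59 (Wnt3a, limma adjusted p = 0.451). The libraries of the genotypes did not overlap for 2 ligands that were lower and 4 that were higher in CTCF-K20R mESCs, and 40.3% and 37.6% of all genes did the same.

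The genotype difference was then compared between the days with the interaction term of the same fit. It was called for 6 of the 9 ligands, 5 with a negative and 1 with a positive term (day 4 minus day 0), against 6.04% and 6.84% of all genes. Without Wnt3a the counts were 4 and 1. The term was -5.22 for Wnt5a (standard error 0.583, limma adjusted p = 0.00304), -4.07 for Wnt3a (0.672, 0.0104), -2.36 for Wnt5b (0.351, 0.0076), -2.32 for Wnt11 (0.46, 0.0184), -1.45 for Wnt8a (0.404, 0.0498) and 1.84 for Wnt9a (0.49, 0.044). The calls of Wnt5a and Wnt3a held in all 16 alternatives. That of Wnt9a was lost in 7 (highest limma adjusted p = 0.108), among them without replicate 1 of the WT mESCs and without any 1 of the 4 CTCF-K20R libraries, and that of Wnt11 in 4 (highest 0.0782), without any 1 of the 4 CTCF-K20R libraries. That of Wnt5b was lost without replicate 1 (limma adjusted p = 0.0619) or replicate 2 (0.0552) of the CTCF-K20R EBs. The term of Wnt8a rests on mESC libraries near the limit of detection, and it was lost in 6 alternatives (the same 5 libraries and no filter) and was 0.03 with a pseudocount of 10. For Wnt3 the term was -1.79 (standard error 0.714, limma adjusted p = 0.124) and for Wnt6 -1.57 (limma adjusted p = 0.259), so a difference between days was not shown for these ligands.

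The same libraries were then read along differentiation, from mESCs to EBs. In WT cells 7 of the 9 ligands were higher on day 4 by more than 1 on the log2 scale and 0 were lower by as much, where 18.9% and 16.3% of all genes passed these folds. This sets 1 WT sample against 1 and has no test. In CTCF-K20R cells, where each day had 2 samples, 5 ligands rose from day 0 to day 4 (Wnt3, Wnt5a, Wnt8a, Wnt9a and Wnt11) and 1, Wnt6, fell, against 14.5% and 11.6% of all genes. The log2 change of Wnt8a was 9.06 in WT and 7.60 in CTCF-K20R cells (standard error 0.233, limma adjusted p = 1e-05), and that of Wnt3 was 7.01 and 5.23 (standard error 0.412, limma adjusted p = 0.000222). Both ligands thus rose strongly in the mutant. Wnt5a differed most, with 6.89 in WT and 1.67 in CTCF-K20R cells (standard error 0.336, limma adjusted p = 0.0078). The change of Wnt3a was 3.81 in WT and -0.27 in CTCF-K20R cells (limma adjusted p = 0.584), and that of Wnt5b was 2.90 and 0.53 (limma adjusted p = 0.0689). Wnt11 had 3.56 and 1.24 (limma adjusted p = 0.00988), and Wnt9a 0.00 and 1.84 (limma adjusted p = 0.00279). These changes use the same samples as the interaction term and are no separate evidence.

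**Figure D3:**
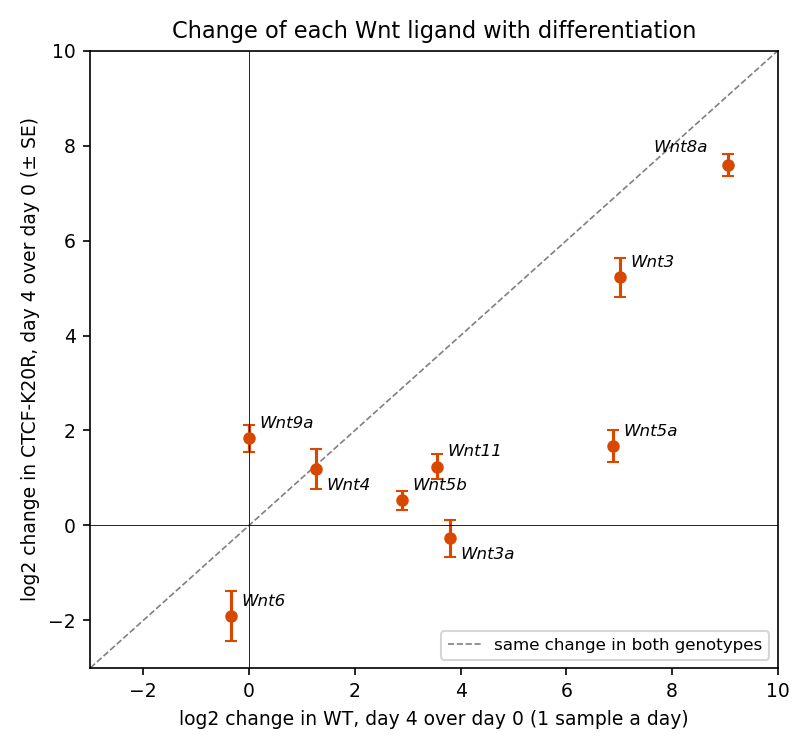
Log2 change from day 0 to day 4 of each tested ligand in WT cells (x axis, 1 sample a day) and in CTCF-K20R cells (y axis, 2 samples a day, with standard errors), with a dashed line where both are equal. Wnt5a, Wnt3a, Wnt5b and Wnt11 lie well below the line, Wnt9a lies above it, and Wnt4 lies on it within its standard error.

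The levels of different ligands were compared per kb of annotated exons, since longer transcripts give more reads. In WT EBs the order was Wnt8a with 448 normalized counts per kb, Wnt3 with 410, Wnt5a with 214, Wnt5b with 161, Wnt11 with 55.6, Wnt3a with 30.5, Wnt6 with 15.5, Wnt4 with 10.3, Wnt9a with 5.29 and Wnt7b with 0.617. In CTCF-K20R EBs the order was Wnt8a with 654 ± 12.0 normalized counts per kb, Wnt3 with 96.8 ± 3.25, Wnt5b with 36.1 ± 5.86, Wnt9a with 22.4 ± 0.506, Wnt11 with 12.2 ± 1.89 and Wnt4 with 8.02 ± 1.81 (SD, n = 2). Wnt6, Wnt5a and Wnt3a followed between 2.42 and 3.25 and did not differ beyond their spread, and Wnt7b came last. Wnt5a thus stood in the third place of the 10 in WT EBs and among these low ligands in CTCF-K20R EBs, and Wnt9a stood in the ninth and the fourth place. The sum over the 10 ligands was 1353 and 1350 normalized counts per kb in WT EBs and 827.6 and 850.4 in CTCF-K20R EBs, against 58.1 to 66.3 in the 4 mESC libraries.

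The makeup of this sum changed as well. Wnt8a made up 33.1% and 33.2% of it in WT EBs and 78.0% and 77.9% in CTCF-K20R EBs. The share of Wnt3 was 30.3% in both WT EB libraries and 12.0% and 11.1% in CTCF-K20R EBs, and that of Wnt5a 15.8% and 16.0% against 0.471% and 0.288%. In mESCs Wnt5b, with 34.0% to 41.8%, and Wnt6, with 18.3% to 33.6%, had the largest shares in all 4 libraries. A share can rise because other members fell, and the level of Wnt8a itself did not pass the test on day 4.

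**Figure D4:**
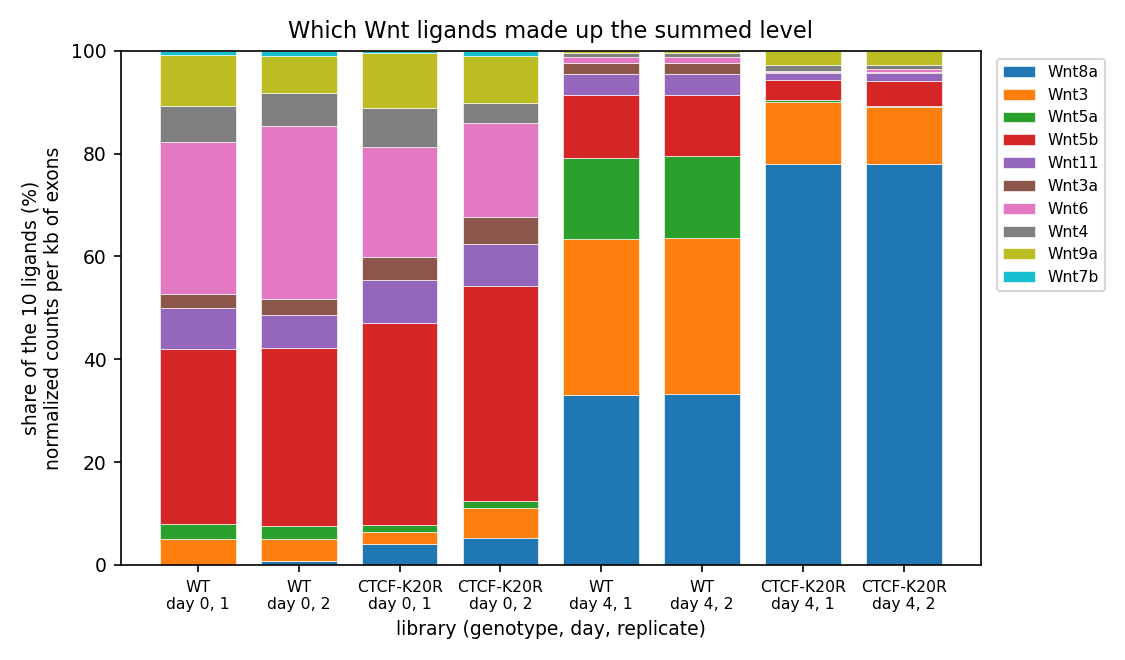
Share of each ligand in the sum of normalized counts per kb over the 10 ligands (%), with a stacked bar for each of the 8 libraries. Wnt5b and Wnt6 take most of the mESC bars, Wnt8a, Wnt3, Wnt5a and Wnt5b share the WT EB bars, and Wnt8a takes 78.0% and 77.9% of the CTCF-K20R EB bars.

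Of the other 9 mouse Wnt genes, 6 were listed and 3 could be tested. Wnt2, known from lung and placenta, was listed at 0 in all mESC libraries and had 115.5 normalized counts in both WT EB libraries against 3.44 and 1.09 in CTCF-K20R EBs, which is at least 33.6-fold lower (limma adjusted p = 0.00358). Wnt2b, its paralog, was at 344.5 and 341.2 (WT EBs) and at 11.5 and 26.2 normalized counts (CTCF-K20R EBs), 18.2-fold lower (log2 fold change -4.22, standard error 0.561, limma adjusted p = 0.00308). Wnt9b, which neighbours Wnt3 in divergent orientation with start sites 24.3 kb apart, was at 60.4 and 57.5 (WT EBs) and at 11.5 and 13.0 normalized counts (CTCF-K20R EBs) and missed the adjusted p (limma, 0.12) at a log2 fold change of -2.18 with a standard error of 0.938. Wnt2 and Wnt9b passed the filter only through the WT EBs.

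The rest of the pathway was read from lists chosen with earlier results of these data known. On day 4, 8.65% of all genes were called lower and 6.89% higher, and the counts of these short lists stand beside those shares. Of the 4 genes of Wnt secretion and release, 1 was called lower and 0 higher. Wls, the carrier of Wnt proteins to the cell surface, was at 2099 and 2148 (WT EBs) and at 543.3 and 574.9 normalized counts (CTCF-K20R EBs), and its log2 fold change was -1.92 (standard error 0.187, limma adjusted p = 0.00103). Porcn, the enzyme that acylates them, had a log2 fold change of -0.90 (limma adjusted p = 0.036), short of the minimum.

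Of the 12 Frizzled and Lrp receptor genes, 4 were called lower and 0 higher. They were Fzd1 (log2 fold change -3.36), Fzd3 (-1.84), Fzd10 (-1.43) and Fzd8 (-1.35), and the values of Lrp5 (-0.04) and Lrp6 (0.03), the co-receptors, were smaller than their standard errors. Among 7 alternative receptors, Reck, a co-receptor for Wnt7 ligands, had -1.49 and Ror2, a receptor for Wnt5a, -1.19, and these 2 were called lower. The R-spondin group holds genes whose products raise or reduce the number of Frizzled receptors at the surface. Of its 8 genes tested, Rspo3 (-5.44) and Lgr5 (-4.64) were lower and Lgr6 (1.77), Rspo1 (1.39) and Lgr4 (1.36) higher.

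Secreted antagonists went both ways, with 5 of 12 called lower and 2 higher. Cer1 (log2 fold change -9.72), Dkk1 (-6.27) and Frzb (-6.17) were the lowest. Of these, Dkk1 binds Wnt co-receptors and Frzb binds Wnt proteins outside the cell. Cer1 reached the filter only through the WT EBs, and without it 4 of 11 were lower and 2 higher. Of the 17 genes of the β-catenin relay, 3 were called lower and 0 higher, where 8.65% and 6.89% of all genes were, namely Tcf7l2 (-2.09), Pygo1 (-1.58) and Lef1 (-1.52). Of the 13 target genes, 9 were called lower and 0 higher, and their median log2 fold change was -1.84. T had -5.33 and Sp5 -5.05, and Msgn1, which had 881.0 and 884.2 normalized counts in WT EBs, stood at 0 in both CTCF-K20R EB libraries. Msgn1 and Cdx4 reached the filter only through the WT EBs, and without these 2 genes 8 of 11 targets were lower, against 8.65% of all genes, with a median of -1.84.

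The same lists were read on day 0, when 2.6% of all genes were called lower and 1.19% higher. The counts were 0 of 4 for secretion, 0 of 12 for Frizzled and Lrp receptors, 1 of 7 for alternative receptors (Ror1, -2.24), 1 of 8 for the R-spondin group (Rspo1, 1.66), 1 of 12 for antagonists (lower) and 1 of 17 for the relay (Lef1, -1.52). Of the 13 targets, 2 were lower and 2 higher in CTCF-K20R mESCs. Wls, called lower on day 4, had a log2 fold change of -0.94 on day 0 (standard error 0.187, limma adjusted p = 0.0285), just short of the minimum. Its genotype-by-day difference of -0.98 was not called.

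Markers of cell types moved together with the ligands on day 4. The counts called below stand beside 8.65% of all genes called lower and 6.89% called higher on that day. The summed level of 7 primitive streak and mesoderm markers stood at 39890 and 40010 in WT EBs, in normalized counts, and at 3204 and 3148 in CTCF-K20R EBs, and 6 of the 7 were called lower (5 of 6 without Mesp1, which reached the filter only through the WT EBs). Most of the sum was T, with 20700 and 20900 in WT EBs and 520.3 and 514.6 in CTCF-K20R EBs, and Eomes, with 9931 and 9866 against 1845 and 1777. T and Tbx6 are also among the target genes above, so these lists are not separate evidence. The 7 pluripotency markers summed to 15540 and 15650 in WT EBs and 32130 and 31410 in CTCF-K20R EBs (4 called higher, 1 lower). The neural ectoderm markers, of which 5 of 6 were tested, summed to 2050 and 2011 against 3217 and 3278 (3 higher, 0 lower). Zic1, not called, reached the filter only through the WT EBs. Most of the sum was Nes, with 1921 and 1884 in WT EBs and 2504 and 2539 in CTCF-K20R EBs. Its log2 fold change of 0.41 was short of the minimum. The fibroblast markers, of which 6 of 9 were tested, summed to 610.3 to 628.5 in WT EBs and 765.7 to 858.2 in CTCF-K20R EBs (2 higher and 1, Postn, lower, which reached the filter only through the WT EBs), and to 504.3 to 515.4 against 152.6 to 166.6 in mESCs, where Thy1 held most of the sum. The 2 higher ones were Thy1 and Col3a1. Col3a1 reached the filter only through the CTCF-K20R EBs, in which it was high (62.9 and 22.4 normalized counts). Of the 6 visceral endoderm markers 2 were tested and 1, Amn, was higher, and Afp stayed at 0 to 5.74 normalized counts in all libraries. Cubn, tested and not called, reached the filter only through the CTCF-K20R EBs. The part of the cell type makeup in the levels of the ligands was not tested.

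For the 4 ligands whose mean over the libraries reached 100 normalized counts, the genes outside the family with the most similar course over the 6 samples were looked up among 11056 genes, by the root mean square difference of the centred log2 profiles. They were Parp8 (0.24), Stard13 (0.309) and Dusp4 (0.426) for Wnt3, and Cdh11 (0.341), Foxj1 (0.412) and Rasgrp3 (0.48) for Wnt5a. For Wnt5b they were Has3 (0.149), BC023829 (0.16) and Mum1l1 (0.167). Wnt8a had no close match, its nearest being Gbp2 at 0.80, Galnt3 at 0.863 and Pdlim3 at 0.975. The genes within 2 Mb of each ligand had a median log2 fold change on day 4 between -0.31 (Wnt5a, 16 genes) and 0.11 (Wnt4, 55 genes).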

How the data were processed

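Per the labels, the authors trimmed reads with Trim Galore, quantified them on mm10 with Salmon and scaled the gene counts with DESeq2. What they deposited is a signal, the normalized count of each gene in each library. The paper's methods add tximport for the step from transcripts to genes. The annotation release and the use of strand are not given in the sources used here. Between 40.0% and 51.4% of the values under 10 lay within 0.05 of a whole multiple of 1 read, so whole reads were not recovered and count models do not apply.

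The log2 of each value plus 1 was fitted in limma 3.58.1 under R 4.3.3 (lmFit and trended eBayes, residual degrees of freedom 2, prior 3.51) over all 15767 genes with a mean of at least 10, with a mean for each of 4 groups and Benjamini-Hochberg adjustment. A value with a pseudocount understates the change of low genes. Calls needed an adjusted p under 0.05 and an absolute log2 fold change above 1. The fit was tested on simulated data. All 8 value columns were used.

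Replicate numbers did not pair the libraries: deviations of same-numbered libraries had correlations of -0.04 to 0.001 over 12383 genes.

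The ligands, the pathway and marker lists and the rule for the genes named were chosen with earlier results of these data known. All ligands are named, of secretion, receptor and R-spondin genes those called on day 4, and of antagonists, relay and targets at most 3 with the largest change. Porcn, Lrp5, Lrp6 and the genes named for day 0 fall outside this rule and were chosen after their values were seen. Positions and exon lengths came from GENCODE vM21 (GRCm38), and promoter windows from RefSeq. Python 3.11.15 with pandas 2.3.3 and matplotlib 3.10.9 read them and drew the plots. Alternatives were other pseudocounts, no filter, quantile normalization, 8 separate libraries with and without a replicate block, only the libraries compared, no trend, the adjusted p alone, and leaving out each library. The other assays of the study, on chromatin, were not used here.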

Additional observations from a re-analysis of the deposited data

Results flagged for a closer look

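For 6 ligands the genotype difference itself differed between day 0 and day 4, by the interaction term of the fit on the log2(value + 1) scale (limma, Benjamini-Hochberg adjusted p under 0.05). The term, day 4 minus day 0, was -5.22 for Wnt5a, -4.07 for Wnt3a, -2.36 for Wnt5b, -2.32 for Wnt11, -1.45 for Wnt8a and 1.84 for Wnt9a. For Wnt5a, Wnt3a, Wnt5b and Wnt11 it came with a lower level in CTCF-K20R EBs, and for Wnt9a with a higher one. For Wnt8a it rests on mESC libraries near the limit of detection. The call was lost in 7 of 16 alternatives for Wnt9a, 6 for Wnt8a (with 1 more that changed sign), 4 for Wnt11 and 2 for Wnt5b, and in 0 for Wnt5a and Wnt3a.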

How the results depend on the processing

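The day 4 calls of Wnt3a, Wnt5a, Wnt5b, Wnt9a and Wnt11 held in all 17 alternatives. Not all of these could lose a call. The adjusted p alone reuses the main fit, and leaving out a WT library keeps its nearly equal partner. Of the 603 values of single ligands under an alternative, 548 kept their direction and their side of the threshold, 42 lost the call, 7 gained it and 6 changed sign. The number of ligands higher in the genotype-by-day difference was 0 with a pseudocount of 0.1 and without the filter, that of ligands higher on day 0 was 0 with a pseudocount of 10, with only the libraries compared and without the trend, and that of ligands lower with time in CTCF-K20R cells was 0 without the filter and without the trend. When each library was left out in turn, the counts ranged from 1 to 1 higher and 4 to 6 lower on day 4, 0 to 1 higher and 0 to 0 lower on day 0, 4 to 6 higher and 0 to 1 lower with time in CTCF-K20R cells, and 0 to 1 higher and 2 to 5 lower in the genotype-by-day difference. The log2 values that changed sign were the genotype-by-day differences of Wnt8a (0.03 with a pseudocount of 10) and Wnt4 (0.03 after quantile normalization, and from -0.53 to 0.38 with a library left out), and the day 0 values of Wnt3 (from -0.88 to 0.3 with a library left out) and Wnt4 (from -0.76 to 0.15). The libraries behind these sign changes were replicate 1 of the CTCF-K20R mESCs for Wnt3, and both CTCF-K20R mESC libraries and replicate 2 of the CTCF-K20R EBs for Wnt4. The cause was not tested.

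The Wnt3 call on day 4 was lost without the filter (limma adjusted p = 0.0651) and without the trend (0.0853), and that of Wnt6 with a pseudocount of 0.1 (0.0528), without the filter (0.0822), with only the libraries compared (0.0763), without the trend (0.0975), and without replicate 1 (0.0759) or 2 (0.0754) of the CTCF-K20R mESCs or replicate 1 of the CTCF-K20R EBs (0.0687). With 8 separate libraries and the replicate number as a block, 6 ligands were lower and 1 higher on day 4, 6 were lower in the genotype-by-day difference (Wnt3 added, limma adjusted p = 0.0196) and 6 higher with time in CTCF-K20R cells (Wnt4 added), and without the block the counts were equal. Fits with 8 separate libraries treat the WT libraries of a day as independent, although they differed by less than sampling noise allows. Their smaller p-values and added calls are therefore no stronger evidence than the main fit. Over all genes, quantile normalization gave 1464 higher and 1213 lower genes on day 4, against 1087 and 1364. No WT difference has a replicate check, values under about 3 normalized counts were at the limit of detection, and Wnt7b could not be read at this depth.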
